A study of Cannabis sativa with 12 samples.

Results

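Day 15 after sowing (H15) was compared with the mean of the 3 other time points of a hypocotyl time course in hemp, Cannabis sativa cv. Santhica 27, a European fiber cultivar. The comparison covers 3 pools of H15 against 9 pools, 3 each of day 6 (H6), day 9 (H9) and day 20 (H20), which are all 12 pools of the series. Every pool held 20 whole hypocotyls of untreated plants, grown in incubators (light for 16 h at 25°C, then darkness for 8 h at 20°C) and drawn at random from all incubators as a single experimental batch. No group carries a mutation, a transgene or a treatment, so age is the labelled difference between them. All 3622 contigs of the deposited table entered the comparison. These contigs had been selected for changing among the 4 time points, so a change as such was given. Its place in time was not, except where the other 3 time points stayed within 2-fold of each other.

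The hypocotyl is the stem between root and cotyledons. In hemp it first elongates, then the cambium adds secondary xylem, and bast fibers in the phloem lay down thick cellulose-rich walls. A transcript that is highest or lowest at an intermediate age departs from the steady rise or fall of a maturing stem, and such transient genes are easily missed when only the first and last ages are compared. They were sought among all contigs and are described below by role, with hemp contigs named after their closest Arabidopsis match.

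Against the mean of the other 3 time points, a contig was called higher or lower at H15 where it differed by more than 1 log2 unit with an adjusted p under 0.05. It was called a peak (or a trough) at H15 when it lay above (or below) H6, H9 and H20 each, with the largest of the 3 p-values, adjusted over the 3622 contigs, under 0.05. The log2 fold change from the nearest of the 3 time points is given as the size of the peak or trough. Levels are RPKM, reads scaled to the contig's length and to the mapped reads of the library, and log2 fold changes are edgeR estimates ± SE on the scale of counts with TMM factors. The H15 libraries held 16839670 to 25855401 mapped reads, against 13413477 to 22624960 for the other 9, with 31.1 to 36.8% of the reads of a library in the table. Several contigs can carry the name of 1 gene, as fragments or copies, and reads with more than 1 mapping position were not counted, so the levels of such contigs are uncertain. The names rest on sequence matches to Arabidopsis.

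Of the 3622 contigs, 620 were higher at H15 than the mean of the other time points (17.1%) and 562 lower (15.5%). Against single ages at an adjusted p under 0.05, H15 was above H9 in 38.3% of the contigs and below it in 41.3%, and above H20 in 24.4% and below it in 17.0%. The median log2 fold change over all contigs was -0.08 against the mean of the others, -0.38 against H6, -0.12 against H9 and 0.07 against H20. Of the 620 higher contigs, H20 did not differ from H15 in 433 and lay above it in 34. A peak was called for 157 contigs (4.33%) and a trough for 184 (5.08%). Of the peaks 31 were over 2-fold from the nearest time point (0.856%), and of the troughs 39 (1.08%). Peaks and troughs lay mostly closest to H20, which was the nearest time point for 85 of the 157 peaks and 139 of the 184 troughs. In 69 of the 157 peaks and 60 of the 184 troughs the other 3 time points stayed within 2-fold of each other. This shape was found in 325 of all 3622 contigs. Such a contig passes a filter for a fold change over 2 only through H15, so its frequency among peaks and troughs follows from the selection. For the same reason the p-values of such contigs are no separate support for a change at H15. The median size was 0.66 for peaks and -0.68 for troughs. An annotation naming a gene or protein was present for 127 of the peaks and 159 of the troughs, against 3021 of all contigs. Just inside the threshold, the adjusted p was 0.0499 for the last peak and 0.0496 for the last trough, and just outside it was 0.0506 and 0.0502.

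The number of calls depended on single libraries. Without H15 pool 1 there were 93 peaks and 108 troughs, without H15 pool 2 there were 95 peaks, without H20 pool 3 there were 101 peaks and without H20 pool 1 there were 122 troughs. The split depended on scaling, with 126 peaks and 225 troughs when no scaling factors were used. Counting contigs whose 3 H15 pools simply did not overlap the other 9 gave 322 above (8.89%) and 399 below (11.0%). All 184 troughs and 148 of the 157 peaks were among them.

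**Figure D1:**
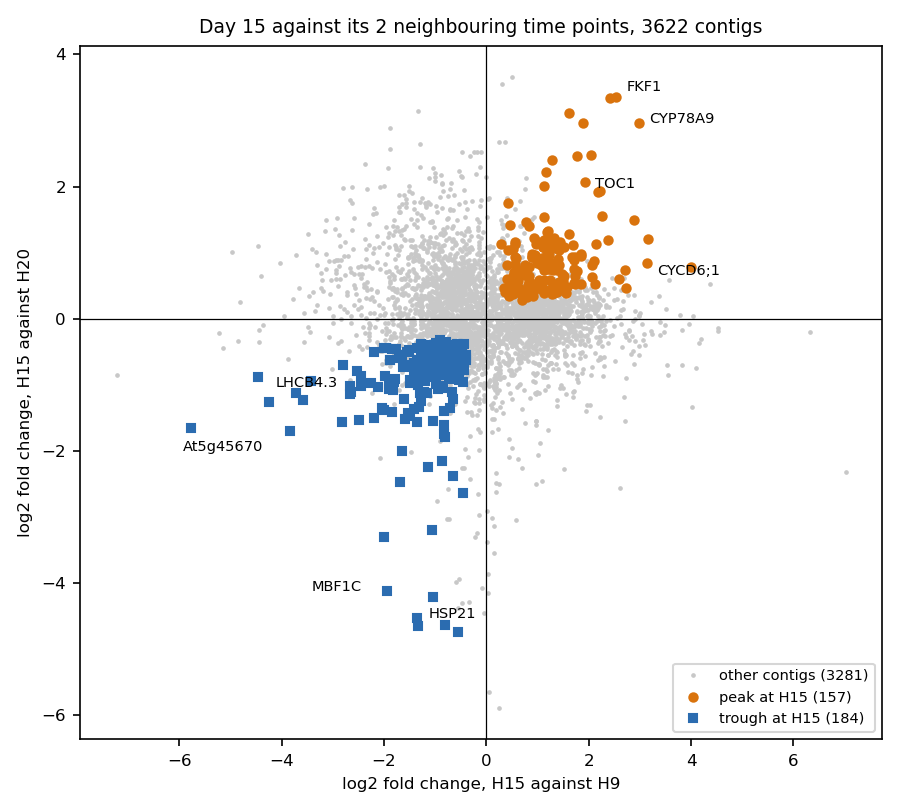
Each point is a contig, placed by its log2 fold change of H15 against H9 (horizontal axis) and against H20 (vertical axis), with peaks as orange circles, troughs as blue squares and all other contigs in grey. The 157 peaks fill the upper right and the 184 troughs the lower left, and the grey points along the horizontal line are contigs in which H15 differed from H9 and little from H20.

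All 5 contigs of the evening clock list peaked at H15, against 4.33% of all contigs. The list was chosen with earlier results of these data known. The circadian clock is a regulatory loop in which LHY is expressed around dawn and TOC1, GIGANTEA and FKF1 from the afternoon into the evening. Within it LHY and pseudo-response regulators such as TOC1 repress each other. FKF1, a blue-light receptor that targets repressors of flowering for degradation, had 21.0, 15.1 and 26.1 RPKM in the 3 H15 pools. The other pools had 3.27, 3.40 and 8.22 RPKM at H6, 3.20, 4.61 and 4.01 at H9 and 1.94, 2.13 and 2.08 at H20. No other pool reached the lowest H15 pool, although H6 pool 3 stood above the remaining ones. The log2 fold change against the mean of the other time points was 2.69 ± 0.23 (adjusted p = 3.99e-07), and the peak had a size of 2.17 (adjusted p = 0.00082).

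PRR5, a pseudo-response regulator that represses the morning genes, had 23.8, 23.2 and 32.0 RPKM at H15 and 4.41 to 10.1 RPKM in the other 9 pools. Its log2 fold change against their mean was 2.18 ± 0.14, with a peak size of 1.76 (adjusted p = 0.000145). TOC1, the founding pseudo-response regulator, had 31.0, 28.8 and 35.1 RPKM at H15, 18.8, 17.0 and 20.5 at H6, 8.21, 9.58 and 9.75 at H9 and 7.69, 7.59 and 7.60 at H20. TOC1 therefore had a second, lower level at H6, and its peak over H6 was 0.88 ± 0.12 on the log2 scale (adjusted p of the peak = 0.000501). GIGANTEA, a partner of FKF1 in day-length sensing, had 89.9, 86.5 and 102 RPKM at H15 and 39.1 to 53.1 RPKM elsewhere, which is a flat profile with a single step of about 0.96 log2 units at H15 (adjusted p = 0.000222). The contig matched to At2g21660, which in Arabidopsis encodes the clock-driven RNA-binding protein GRP7, was the most abundant of the list with 532, 602 and 481 RPKM at H15. It had 311 to 425 RPKM at H6 and H9 and 194 to 205 at H20, and a peak of 0.66 (adjusted p = 0.00614). These 5 calls held in every alternative fit and without any single library.

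The 4 contigs of the morning list did not share the pattern. LHY, a dawn repressor at the core of the loop, had 153, 155 and 154 RPKM at H15, below H9 with 425, 376 and 410.2 and H20 with 270.5, 251 and 248, but above H6 with 119.5, 115 and 99.9. Its log2 fold change was -1.25 ± 0.10 against H9 (adjusted p = 4.82e-07), -0.71 ± 0.10 against H20 (adjusted p = 0.000177) and 0.59 ± 0.10 against H6 (adjusted p = 0.000116). LHY was thus intermediate at H15 and neither a peak nor a trough. COL2, a B-box protein of the CONSTANS family, was a trough at 17.4, 18.4 and 16.1 RPKM, against 24.2 to 93.0 RPKM in the other pools (size -0.50, adjusted p = 0.00806). RVE8, a MYB activator of evening genes, had 25.9 ± 5.93 RPKM at H15 and 21.7 ± 0.921 at H20 (SD, n = 3). The fourth, At5g52660 of the same MYB family, had 44.6 ± 2.45 RPKM at H15, between 51.5 at H6 and 30.1 at H9. Of the 27 contigs annotated to the circadian rhythm by gene ontology, a term chosen after the values were seen, 2 peaked (7.41%) and 3 had a trough (11.1%), against 4.33% and 5.08% of all contigs. Clock transcripts vary over each day, and the hour of sampling at each age is not given in the sources used here, so age and time of day cannot be told apart for these genes.

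**Figure D2:**
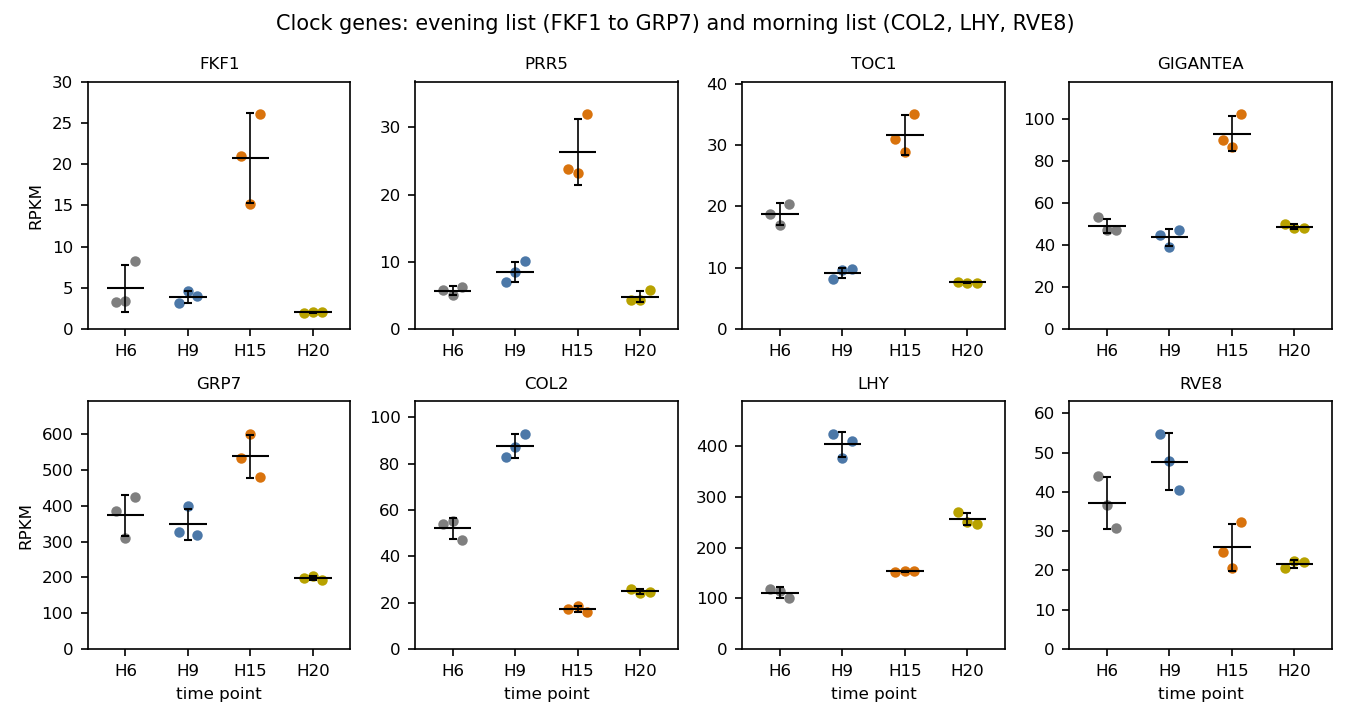
Each panel shows the RPKM of a clock gene in the 12 pools (points), with the mean (line) and SD (bars, n = 3) of each time point. In the 5 evening genes the 3 H15 pools lie above all other pools, for FKF1 at 15.1 to 26.1 against at most 8.22, while COL2 is lowest at H15 and LHY and RVE8 are not extreme there.

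The peak of the largest size was CYP78A9, a cytochrome P450 whose overexpression enlarges fruits and seeds in Arabidopsis. It had 40.9, 45.0 and 27.2 RPKM at H15 and 2.45 to 6.97 RPKM in the other 9 pools, with a log2 fold change of 3.06 ± 0.23 (adjusted p = 1.29e-07) and a peak size of 2.96. The H15 pools differed among themselves, pool 3 having the lowest value, and still all exceeded every other pool. AN3, also named GIF1, a transcriptional coactivator that promotes cell proliferation in leaves together with growth-regulating factors, had 18.1, 19.4 and 18.4 RPKM at H15. The other pools lay at 3.09 to 7.23 RPKM, and the peak had a size of 1.86 (adjusted p = 0.000121). CYP78A9 and AN3 both had H6, H9 and H20 within 2-fold of each other, so they passed a filter for a fold change over 2 only through H15. That they stood out at H15 therefore follows from the selection. The same holds for PRR5, GIGANTEA and GRP7 above and for CT-BMY, IPK2BETA and At1g02260 below.

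CT-BMY, a chloroplast beta-amylase that releases maltose from starch, had 67.1, 60.2 and 81.0 RPKM at H15. Its other pools had 12.8, 18.9 and 35.1 at H6, 18.3, 15.5 and 15.4 at H9 and 20.2, 16.6 and 18.6 at H20, for a log2 fold change of 1.97 ± 0.20 (adjusted p = 1.75e-06) and a size of 1.76. The highest of the 9 was again H6 pool 3, as for FKF1 and for the tetratricopeptide repeat protein At4g17940, which had 17.9, 16.2 and 20.8 RPKM at H15 and 2.86, 3.74 and 8.46 at H6 (size 1.89). Of the 9 contigs of the starch and sugar starvation list CT-BMY was the single peak (11.1%, against 4.33% of all contigs). The beta-amylase BAM1, another plastid enzyme of the list, had 2 contigs lower at H15 than the mean of the other time points.

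IPK2BETA, an inositol polyphosphate multikinase that makes inositol phosphate signals, had 54.5, 50.9 and 49.8 RPKM at H15 and 18.0 to 22.4 RPKM elsewhere. Its log2 fold change was 1.5 ± 0.07 (adjusted p = 9.60e-09), with a size of 1.28 from the nearest time point, and the pools of each age lay close together. At1g02260, described as a divalent ion symporter, had 20.3, 23.8 and 16.5 RPKM at H15 and 3.48 to 6.18 RPKM elsewhere (size 1.92). The wall-associated receptor kinase-like protein WAKL20 (At5g02070), of a family that binds pectin, had 10.7, 13.3 and 12.8 RPKM at H15 and 1.13 to 5.06 RPKM elsewhere (size 1.5, nearest to H20). At1g61820 had 11.0, 12.4 and 12.6 RPKM at H15, 4.18 to 5.17 at H6 and H9 and 1.10 to 1.58 at H20, which made the fall from H15 to H20 the steeper side of its peak (log2 fold change 3.11 ± 0.18). BROTHER OF FT AND TFL1 (At5g62040), a repressor of flowering of the FT family in Arabidopsis, had 145, 179.6 and 104 RPKM at H15, 69.6, 84.8 and 36.0 at H9 and 87.1, 49.8 and 51.1 at H20, but only 1.46 to 3.41 at H6. Its H15 pools spread widely, and the peak (size 1.22, adjusted p = 0.0194) was lost without H15 pool 1, H15 pool 2, H20 pool 2 or H20 pool 3, with adjusted p up to 0.0747.

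RD21 and SIG4 also peaked over 2-fold and were chosen after their values were seen. RD21, a drought-inducible cysteine protease, had 239, 162 and 294 RPKM at H15 and 60.0 to 114 RPKM elsewhere (size 1.16). SIG4, a sigma factor of the plastid RNA polymerase, had 14.6, 17.2 and 12.7 RPKM at H15 against 1.87 to 10.7 RPKM (size 1.13).

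**Figure D3:**
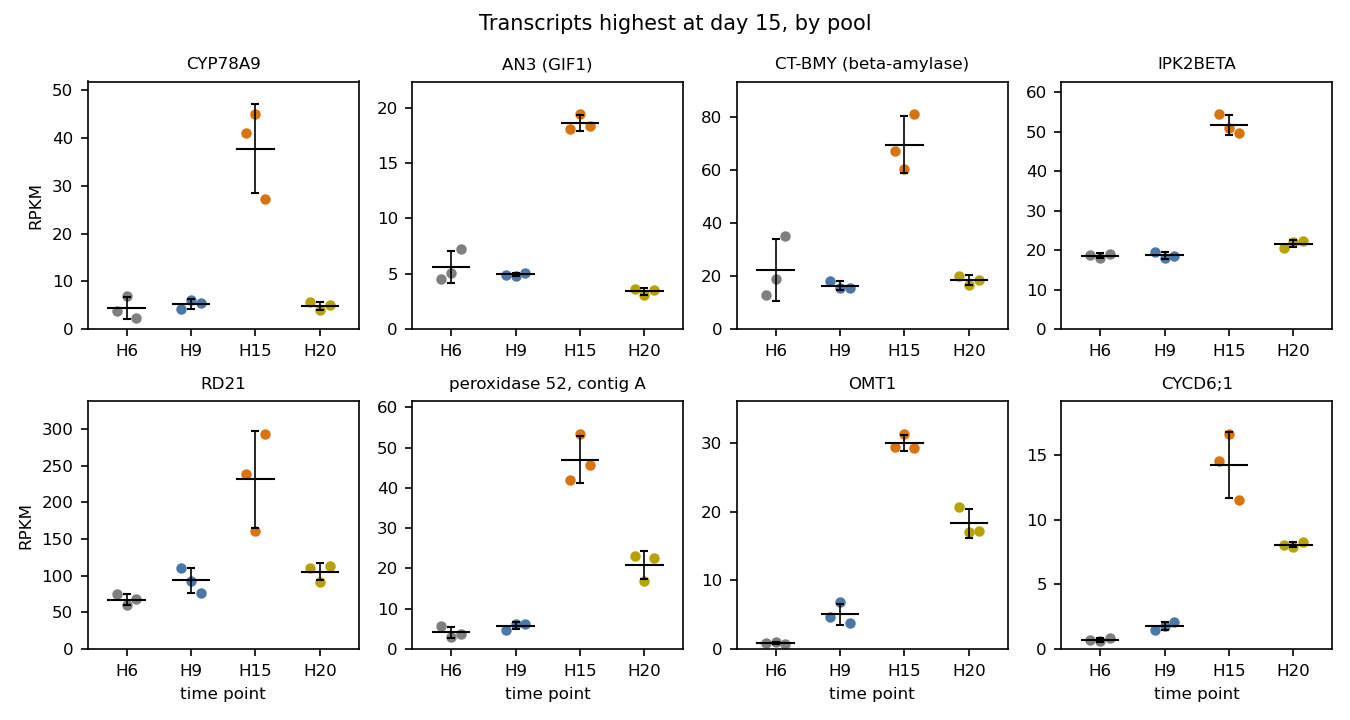
Each panel shows the RPKM of a transcript with a peak at H15 in the 12 pools (points), with mean (line) and SD (bars, n = 3). CYP78A9, AN3, CT-BMY and IPK2BETA rise at H15 from a level that varies by less than 2-fold among H6, H9 and H20, whereas OMT1 and CYCD6;1 rise from H6 to H15 and fall back only in part, OMT1 to 18.3 and CYCD6;1 to 8.08 RPKM at H20.

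Genes of the secondary cell wall were high at H15, but few were higher than at H20. All 11 contigs of the secondary wall cellulose list and 17 of 19 for xylan were higher at H15 than the mean of the others. The share of all contigs was 17.1%. The median log2 fold changes of these lists were 2.03 and 1.61, against -0.08 over all contigs. None of their contigs was called a peak, where 4.33% of all contigs were, so 0 is near that share in lists this short. The medians against H20 were -0.11 and 0.11. Of the 9 contigs for regulators of the secondary wall 7 were above H9 and 0 above H20, against 38.3% and 24.4% of all contigs. The summed RPKM of 8 contigs for fiber and secondary wall markers was 5374 to 5828 in the H15 pools and 5051 to 6543 in the H20 pools, against 161 to 1636 in the younger pools. These are whole hypocotyls, so more or fewer cells of a type and more or less RNA per cell cannot be told apart in any of these values.

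Regulators of the secondary wall that the study discusses, and WLIM1, did not differ between H15 and H20 by the test in any of 7 contigs. SND2 (NAC073), a NAC factor acting on secondary wall cellulose, had 222, 246 and 183 RPKM at H15 and 171, 208 and 172 at H20, which overlap, with a log2 fold change of 0.27 ± 0.14 (adjusted p = 0.145). Against H9 it was 1.63 ± 0.15 (adjusted p = 8.52e-07). MYB46, a master switch of secondary wall synthesis, had 19.2, 20.5 and 18.0 RPKM at H15 and 16.5, 18.4 and 16.9 at H20. NST1, a NAC master regulator of fibers, had 35.7, 33.0 and 36.1 and 40.5, 25.8 and 33.5 RPKM, and VND1, the vessel counterpart, 31.8, 29.5 and 31.9 and 27.3, 33.3 and 29.2. PXC1, a receptor-like kinase for secondary walls in xylem fibers, had 210.0, 225 and 199 and 182, 195 and 189 RPKM, its H15 pools all being the higher. The actin-binding LIM protein WLIM1 had 2 contigs, at 425, 442 and 388 and 57.8, 54.3 and 48.9 RPKM at H15, and 448, 398 and 406 and 43.8, 44.9 and 39.3 at H20. Over the 7 contigs the log2 fold changes of H15 against H20 lay between 0.03 and 0.36.

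Lignin genes included some peaks, but like the cellulose and xylan lists they differed little between H15 and H20. Of 37 contigs for lignin synthesis and polymerization 25 were higher at H15 than the mean of the others (17.1% of all contigs). A peak was called for 4 of the 37 (10.8%, against 4.33% of all contigs). No lignin contig besides these 4 was above H20, against 24.4% of all contigs, and the median log2 fold change against H20 was 0.14. Peroxidase 52, a secreted peroxidase that polymerizes lignin in Arabidopsis fibers, had 2 of the 4 peaks. The first of its contigs had 42.0, 53.5 and 45.7 RPKM at H15, 23.1, 16.8 and 22.6 at H20 and 2.94 to 6.31 before (size 1.20, adjusted p = 0.00261). The second had 199, 169.6 and 223 RPKM at H15, 113, 101 and 89.4 at H9 and 89.4, 86.7 and 107 at H20 (size 1.09, adjusted p = 0.00135). In both, the 3 H15 pools were the highest of the 12. The remaining contig of that name had means of 89.4 RPKM at H15 and 118 at H20 and was no peak (adjusted p = 0.301).

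OMT1, the O-methyltransferase that makes syringyl lignin units, had 3 contigs in the table, of which 1 peaked. That contig had 29.4, 31.4 and 29.3 RPKM at H15, 20.7, 17.0 and 17.3 at H20 and at most 6.79 before (size 0.74, adjusted p = 0.0102), while the most abundant contig of that name had means of 594 RPKM at H15 and 618 at H20. LAC17, a laccase that oxidizes monolignols in the wall, peaked in 1 of 8 contigs, with 148, 154 and 87.2 RPKM at H15 and 73.1, 87.8 and 76.3 at H20. The third H15 pool of LAC17 lay within the range of H20, and the call (size 0.75, adjusted p = 0.0307) was lost without H15 pool 1 or 2 or H20 pool 1 or 3, with adjusted p up to 0.116. Of the 19 contigs annotated to peroxidase activity by gene ontology, a term chosen after the values were seen, 1 had a trough (5.26%, against 5.08% of all contigs). Another 4 peaked (21.1%, against 4.33%). Beside peroxidase 52 these were RCI3 (peroxidase 3), at 196 ± 8.98 RPKM at H15 against means of 63.8, 109 and 111 at H6, H9 and H20, and the abundant peroxidase 42, at 1857 ± 259.8 against 854, 1249 and 1150.0 (SD, n = 3). Both were called without any single library.

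Nearly all division and microtubule contigs were above H9 at H15. Of the 19 cell cycle contigs 18 were above H9, 1 was above H20 (against 38.3% and 24.4% of all contigs) and 3 passed the 2-fold limit against the mean of the others. The contig above H20, and the single peak of the list, was CYCD6;1, a D-type cyclin of formative divisions in the Arabidopsis root. It had 14.5, 16.7 and 11.5 RPKM at H15, 8.05, 7.90 and 8.29 at H20 and at most 2.13 before, with a log2 fold change of 2.80 ± 0.15 (adjusted p = 1.40e-08) and a peak of 0.84 over H20 (adjusted p = 0.00856). The 3 H15 pools of CYCD6;1 did not overlap those of any other age. The D-type cyclin CYCD3;2, in comparison, had 45.4, 48.0 and 37.1 RPKM at H15 and 34.8, 36.7 and 37.0 at H20, and was no peak (adjusted p = 0.213). Of 25 tubulin and kinesin contigs 24 were above H9, 5 were above H20, a share near that of all contigs, and 2 peaked (8.00%). Without H15 pool 2 no tubulin or kinesin contig was called a peak. A kinesin contig had 123 ± 2.06 RPKM at H15 against means of 44.3, 69.8 and 91.2 at H6, H9 and H20 (SD, n = 3), a call lost without H15 pool 1 or 2 or any H20 pool (adjusted p up to 0.0678). TUA6, an alpha-tubulin, had 278, 331 and 285 RPKM at H15 and 218, 219 and 219.6 at H20 (size 0.47), a call lost without H15 pool 2 or H20 pool 3 (adjusted p up to 0.0697). Histone H1.2, a linker histone, peaked at 52.6, 46.7 and 48.6 RPKM, with 32.6, 28.6 and 24.1 at H9 and 23.9, 23.5 and 17.3 at H20 (size 0.94). Of the cambium and vascular list 8 of 9 contigs were above H9 and 0 above H20 (38.3% and 24.4% of all contigs). The list holds the markers PXY and WOX4, which summed to 139 to 177 RPKM at H15 and 136 to 161 at H20.

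Of the 131 transcription factor contigs in the study's inventory, 8 peaked at H15 (6.11%) and 5 had a trough (3.82%), near the 4.33% and 5.08% of all contigs. The number of peaks was 5 without H9 pool 3 and that of troughs 2 without H15 pool 1. HSFA6B, a heat stress transcription factor, had 25.1, 21.2 and 20.5 RPKM at H15 and 6.72 to 15.2 RPKM elsewhere (size 0.98, adjusted p = 0.00415). VRN1, a B3-domain protein known from vernalization, had 12.4, 12.7 and 11.6 RPKM at H15 and 1.75 to 7.68 RPKM elsewhere (size 0.89). ARF9, an auxin response factor, had 57.7, 67.2 and 57.5 RPKM at H15 and 40.2, 40.9 and 43.0 at H20 (size 0.58). NAC047, a NAC factor placed in the abscisic acid and drought list, had uneven H15 pools at 23.4, 14.8 and 33.7 RPKM and 8.47 to 13.0 RPKM at H9 and H20 (size 1.19, adjusted p = 0.0169). Its call was lost without H9 pool 3 or H15 pool 3, with adjusted p up to 0.0679. The other 4 peaks were bHLH51, bHLH74, the nodule inception-like protein NLP5 and At3g07940, with sizes of 0.36 to 0.57, and none of the 4 was called in every alternative. bHLH51 was lost without H9 pool 2 or 3 or H15 pool 1 or 2 (adjusted p up to 0.117), and At3g07940 without H15 pool 1 or 2 or H20 pool 1 or 3 (adjusted p up to 0.0723). NLP5 was lost without any library other than H6 pools 1 and 3, H9 pool 1 and H15 pool 2 (adjusted p up to 0.183). bHLH74 held without each library and was lost without scaling factors and with limma.

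Receptor-like kinases had 26 of 58 contigs above H20 and 2 below it, against 24.4% and 17.0% of all contigs. They had 0 troughs and 4 peaks (6.90%, against 4.33% of all contigs). Beside WAKL20 these included HERK1, a receptor-like kinase of cell elongation in Arabidopsis, at 22.3, 24.1 and 22.5 RPKM at H15 and 6.97 to 18.0 RPKM elsewhere (size 0.50). They also included the lectin receptor-like kinase At1g61500, at 29.7 ± 0.811 RPKM (SD, n = 3) against means of 8.19, 18.4 and 20.4 at H6, H9 and H20, which was lost without H20 pool 2 (adjusted p = 0.0561). Among 27 auxin contigs 2 peaked (7.41%, against 4.33% of all contigs), ARF9 and the SAUR-like protein At2g21210. The latter had 29.8, 30.1 and 21.7 RPKM at H15 and 11.2 to 17.5 at H9 and H20. It was not called without H15 pool 1 (adjusted p = 0.0515). GSTU9, a glutathione S-transferase, had 26.4, 21.8 and 25.1 RPKM at H15 and 9.57 to 16.9 at H9 and H20, from 1.65 to 3.54 at H6 (size 0.97).

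Troughs were frequent among Calvin cycle contigs. The Calvin cycle fixes carbon dioxide in the chloroplast stroma, and 11 of its 13 contigs had a trough at H15 (84.6%, against 5.08% of all contigs). The list was drawn up after its values were seen. RBCS1A, the small subunit of the carbon-fixing enzyme Rubisco, had 131, 130.5 and 118 RPKM at H15. It had 772, 896 and 890.1 RPKM at H6, 327, 385 and 351 at H9 and 223, 227 and 198 at H20, so that it fell up to H15 and was higher again at H20. The log2 fold change was -1.57 ± 0.10 against the mean of the others (adjusted p = 3.24e-08) and -0.75 ± 0.11 against H20 (adjusted p of the trough = 0.00079).

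Rubisco activase (RCA), which removes inhibitory sugars from Rubisco, had 3 contigs, all with a trough. They had means of 222, 41.9 and 2.37 RPKM at H15 and 351, 69.0 and 4.91 at H20. The least abundant of them fell from 113 ± 11.0 RPKM at H6 to 2.37 ± 0.430 at H15 (SD, n = 3), and was the Calvin cycle contig with a trough over 2-fold (size -1.02, adjusted p = 0.00353). GAPB, a subunit of the reducing enzyme of the cycle, had 30.4, 28.3 and 27.2 RPKM at H15 and 49.9, 48.0 and 47.5 at H20 (size -0.73, adjusted p = 0.00044). Its sister subunit GAPA had 37.5 ± 0.200 and 55.8 ± 2.25 RPKM (SD, n = 3). The plastid aldolase FBA2 had 48.1, 50.1 and 48.5 RPKM at H15, 106, 90.8 and 94.8 at H9 and 108, 94.1 and 99.8 at H20 (size -0.85, adjusted p = 0.000248). The pools of H9 and H20 overlapped each other, and those of H15 lay below both.

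Enzymes that regenerate the acceptor of carbon dioxide had troughs as well. SBPASE, sedoheptulose bisphosphatase, had 40.6, 32.1 and 46.1 RPKM at H15 and 68.2, 59.8 and 62.8 at H20 (size -0.66). PRK, phosphoribulokinase, had 37.7 ± 2.46 and 52.9 ± 2.72 RPKM, and HCEF1, a chloroplast fructose-1,6-bisphosphatase, 24.9 ± 3.36 and 35.1 ± 1.89 (SD, n = 3). Outside the pattern stood RPE, an epimerase of the cycle, at 25.3 RPKM at H15 and 30.6 at H20, and CP12-2, a regulatory protein that holds GAPDH and PRK in an inactive complex. CP12-2 had 232, 207 and 217 RPKM at H15, above 141, 166 and 140.2 at H9 and 134, 147 and 144 at H20 and below 420.0, 478 and 608 at H6. Its log2 fold change was 0.65 ± 0.13 against H20 (adjusted p = 0.00153) and 0.70 ± 0.13 against H9 (adjusted p = 0.000278). Of the 11 troughs 9 held in every alternative and without any library, the exceptions being HCEF1 and a phosphoglycerate kinase contig (At1g56190), and the count was 9 without H15 pool 2.

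Photosystem and light-harvesting contigs, which capture light in the thylakoid membrane, were lower at H15 than at H9 in 34 of 38 (41.3% of all contigs). They were lower than at H20 in 19 of 38 (17.0% of all contigs). A trough was called for 16 (42.1%, against 5.08% of all contigs). Their summed RPKM was 3931 to 4085 in the H15 pools. It was 4861 to 4984 at H20, 7026 to 7396 at H9 and 12310 to 13930 at H6, so the H15 pools were the lowest without overlap. LHCB4.3, a minor antenna protein of photosystem II, had 7.19, 6.55 and 8.82 RPKM at H15 and 16.4, 14.2 and 14.3 at H20, after 121, 127 and 138 at H6 (size -0.97, adjusted p = 0.00082). PSB28, an assembly factor of photosystem II, had 11.7, 9.18 and 9.34 RPKM at H15 and 17.6 to 29.3 RPKM elsewhere (size -0.85). The PsbP-domain protein At1g77090 had 15.1, 14.3 and 9.72 RPKM at H15 and 28.0, 30.3 and 27.3 at H20 (size -1.10). The oxygen-evolving subunits PSBO2, PSBP-1 and PSBQ-2 were more abundant and fell less far below H20, with sizes of -0.42, -0.52 and -0.48. NPQ4 (PsbS), which dissipates excess light as heat, had 59.5 ± 2.38 RPKM at H15 against means of 119.9, 94.7 and 115 at H6, H9 and H20 (SD, n = 3). The 2 peaks in the group were both contigs matched to At1g69680, with means of 149 and 113 RPKM at H15 and 106 and 78.1 at H20, of which the second was lost in most alternatives. Without H15 pool 1 the number of troughs was 10. Gene ontology, with terms chosen after the values were seen, gave 39 troughs (30.5%) and 1 peak (0.781%) among 128 contigs of the chloroplast thylakoid membrane. The stroma had 20 troughs (12%) and 3 peaks (1.8%) among 167, against 5.08% and 4.33% of all contigs.

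ELIP1, an early light-inducible protein that binds chlorophyll under strong light, had 2 contigs with deep troughs. The first had 83.5, 81.3 and 73.6 RPKM at H15, 407, 365 and 303 at H6, 215, 299 and 328 at H9 and 501, 451 and 392 at H20. The highest H15 pool was thus below the lowest of the other 9 by more than 2-fold, and the trough had a size of -1.68 (adjusted p = 0.000128). The second had 21.7, 20.8 and 19.8 RPKM at H15 and 76.2, 55.0 and 51.4 at H20, with 109 to 252 before (size -1.53, adjusted p = 0.000321).

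The 5 troughs of the transcription factor inventory were COL2, PIF7, HY5, SPATULA and bHLH147. PIF7, a phytochrome-interacting factor that promotes hypocotyl elongation in shade, had 25.2, 29.7 and 28.7 RPKM at H15, 89.7, 78.3 and 81.1 at H9 and 53.1, 45.8 and 42.6 at H20 (size -0.72, adjusted p = 0.00758), a call lost with RLE in place of TMM factors. Outside the inventory, the small B-box protein At4g15248 had 12.5, 8.89 and 15.4 RPKM at H15, 92.5, 106 and 85.5 at H9 and 43.0, 36.1 and 31.2 at H20 (size -1.57, adjusted p = 0.00602). HY5, the bZIP activator of light-induced genes, had 33.8, 32.4 and 22.0 RPKM at H15 and 43.6, 45.0 and 43.3 at H20, without overlap. The HY5 call (size -0.55, adjusted p = 0.039) was lost without H6 pool 2, H15 pool 1 or 3, or any H20 pool, with adjusted p up to 0.112. SPATULA and bHLH147 had troughs with sizes of -0.56 and -0.62. SPATULA was called without H6 pool 1 or 2 or H9 pool 1 or 2 and bHLH147 without H6 pool 1 or 3, H9 pool 1 or H15 pool 2, and neither without any other library, with adjusted p up to 0.147 for SPATULA and 0.176 for bHLH147. Of 38 contigs annotated to the response to blue light, a term chosen after the values were seen, 20 had a trough (52.6%, against 5.08% of all contigs). A peak was called for 1, FKF1 (2.63%, against 4.33%).

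**Figure D4:**
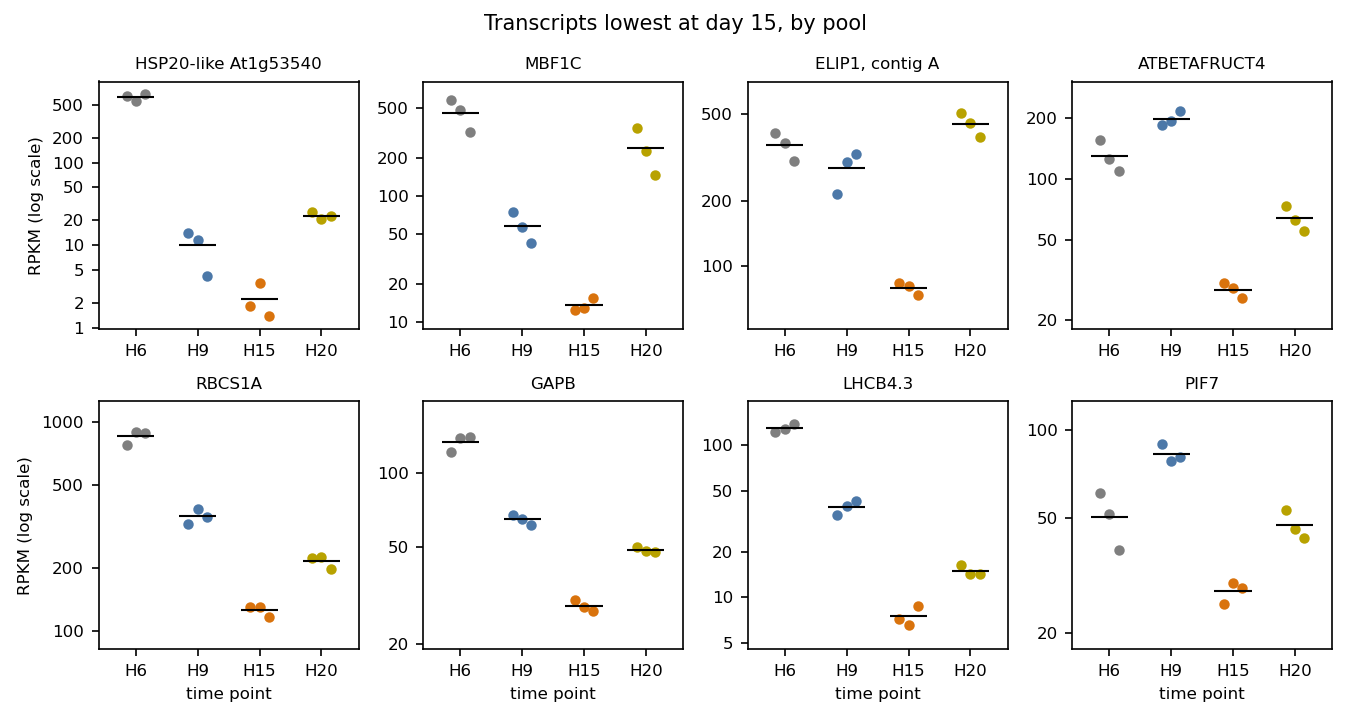
Each panel shows the RPKM of a transcript with a trough at H15 in the 12 pools (points) on a log scale, with the mean of each time point as a line. The 3 H15 pools lie below the other 9 in every panel, as in GAPB with 27.2 to 30.4 RPKM against 47.5 to 49.9 at H20.

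The troughs of the largest size, At1g53540 and MBF1C, were in genes of the heat response. Heat shock proteins are chaperones that hold or refold damaged proteins, and 16 of the 23 contigs of the family were lower at H15 than the mean of the others, with a median log2 fold change of -3.31. The medians against each age were -5.77 for H6, -0.14 for H9 and -3.03 for H20, so the family was low at H9 and H15 alike, and 20 of 23 contigs were below H20. Of all contigs 15.5% were lower than the mean of the others and 17.0% were below H20. A trough was called for 6 of 23 (26.1%, against 5.08% of all contigs) and a peak for 1 (4.35%, against 4.33%). The small heat shock protein At1g53540 had 1.82, 3.44 and 1.37 RPKM at H15, 14.1, 11.7 and 4.23 at H9, 25.1, 21.0 and 22.5 at H20 and 638, 553 and 684 at H6. The H15 pools were the lowest of the 12, with a log2 fold change of -4.42 ± 0.37 (adjusted p = 3.15e-07) and a size of -1.99 from H9 (adjusted p = 0.00463). HSP15.7 (At5g37670) had 3.00, 2.15 and 1.30 RPKM at H15, 8.10, 5.67 and 4.07 at H9 and 48.7, 53.0 and 48.2 at H20 (size -1.36). Hsp70b, a heat-inducible HSP70, had 38.8 ± 0.602 RPKM at H15, 75.4 ± 12.8 at H9 and 984 ± 189 at H20 (SD, n = 3).

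MBF1C, a coactivator of the heat response, had 12.4, 12.8 and 15.3 RPKM at H15, 74.2, 56.5 and 41.9 at H9, 348, 228 and 146 at H20 and 578, 478 and 319 at H6. The H20 pools spread more than 2-fold but stayed far above H15, with a log2 fold change of -4.13 ± 0.34 against H20 (adjusted p = 1.81e-06). BAG6, a calmodulin-binding co-chaperone, had 4 contigs with a trough, 2 of them called in every alternative. The one with the largest size had 45.1, 46.4 and 27.5 RPKM at H15, 145, 157 and 111 at H9 and 214, 113 and 158 at H20 (size -1.65, adjusted p = 0.00354). HSP21, a chloroplast small heat shock protein, had 2.31, 2.97 and 3.13 RPKM at H15 and 7.71, 9.16 and 6.83 at H9, and its trough (size -1.33) was lost without H9 pool 1 or 2 or without any of the H15 pools, with adjusted p up to 0.102. Opposite to these, the class V protein HSP15.4 (At4g21870) peaked at 16.1, 14.1 and 13.4 RPKM, with 2.28 to 7.54 RPKM elsewhere (size 1.28, adjusted p = 0.000786). All 4 ages were grown under the same cycle of light at 25°C and darkness at 20°C, and the hour of sampling is not given. Age and time of day therefore cannot be told apart for these genes, nor for the light-related genes above.

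ARR9, a type-A response regulator that cytokinin induces and that damps cytokinin signalling, had both of its contigs at their lowest at H15. The first had 12.7, 10.5 and 10.9 RPKM at H15, 37.0, 28.6 and 25.2 at H6, 48.6, 56.4 and 34.8 at H9 and 20.8, 28.5 and 23.6 at H20 (size -1.07, adjusted p = 0.00248). In the second the H15 pools had 58.3, 61.3 and 53.6 RPKM and the H20 pools 74.9, 89.9 and 100.3 (size -0.59, adjusted p = 0.0223), a call lost without H15 pool 1 or 3 or H20 pool 2 or 3 (adjusted p up to 0.0842). A trough was thus called for 2 of the 7 cytokinin contigs (28.6%, against 5.08% of all contigs). The other 5 were neither peaks nor troughs. Of these the phosphotransfer protein AHP4 had 34.4 ± 5.0 RPKM at H15 and 30.8 ± 4.29 at H20 (SD, n = 3). EFE, an ACC oxidase of ethylene synthesis, had 10.6, 11.8 and 8.61 RPKM at H15 and 16.0, 14.1 and 14.1 at H20 (size -0.49, adjusted p = 0.0448), and its call was lost without any single library other than H6 pool 3, H9 pool 3 or H15 pool 2, with adjusted p up to 0.143.

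Several troughs were in primary metabolism, and the contigs of this paragraph were chosen after their values were seen. ATBETAFRUCT4, a vacuolar acid invertase that splits sucrose, had 30.5, 28.8 and 25.8 RPKM at H15, 185, 192 and 216 at H9 and 73.2, 62.4 and 55.3 at H20 (size -1.14, adjusted p = 0.000495). Another contig described as a beta-fructosidase had 18.1 ± 5.11 RPKM at H15 against means of 116, 68.3 and 34.6 at H6, H9 and H20 (SD, n = 3), and the alkaline/neutral invertase INV-E 11.7 ± 1.35 against 30.5, 27.1 and 16.8. MIPS2, which makes myo-inositol phosphate, had 16.8, 13.4 and 14.3 RPKM at H15, 50.9, 26.3 and 24.6 at H9 and 142, 137 and 138 at H20. The size of its trough was -1.05, with H9 nearest and H20 back near the level of H6 (145 RPKM). HMGR1 (At1g76490), the reductase that commits carbon to isoprenoids, had 26.6, 21.0 and 33.9 RPKM at H15 and 43.1, 68.6 and 64.0 at H20 (size -1.08). A carotenoid cleavage dioxygenase 1 contig had 10.6 ± 1.68 and 21.8 ± 4.92 RPKM at these ages (SD, n = 3), and the aldolase At4g26530 3.01 ± 0.726 and 7.27 ± 1.71. All 7 were called without any single library.

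Among surface and wall proteins, a contig described as a homolog of maize gl1, a gene of leaf wax in maize, had 0.560, 0.360 and 0.710 RPKM at H15 and 2.21, 1.11 and 2.01 at H20, after 40.4, 36.6 and 36.2 at H6 (size -1.71, adjusted p = 0.00125). The GDSL esterase/lipase At5g45670 had 3.80, 0.630 and 5.52 RPKM at H15, 9.80, 11.5 and 10.2 at H20 and 184 to 426 before. Its trough (size -1.66, adjusted p = 0.0189) was lost without H15 pool 1 (adjusted p = 0.0521), the second H15 pool being several-fold below the other 2. The lipid-transfer protein At4g00165 had 2.08, 2.58 and 1.92 RPKM at H15 and 4.45, 7.67 and 5.63 at H20 (size -1.38). Of 37 pectin contigs 2 peaked (5.41%) and 3 had a trough (8.11%), near the 4.33% and 5.08% of all contigs, and 0 had a trough without H15 pool 1. A putative polygalacturonase, an enzyme that cuts pectin, peaked at 68.6, 69.5 and 50.5 RPKM with 42.1, 38.0 and 36.6 at H20 (size 0.72), while the pectinesterase At2g45220 was low at 7.41, 3.43 and 15.4 RPKM with 27.0, 24.3 and 19.9 at H20 (size -1.42). The At2g45220 call was lost without H9 pool 1, H15 pool 1 or H20 pool 1 (adjusted p up to 0.0853). A tonoplast aquaporin of the gamma-TIP type had 515, 505 and 527 RPKM at H15 and 762 to 1348 RPKM elsewhere (size -0.57, adjusted p = 0.00539).

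Among hormone and wall genes OPR2, an oxophytodienoate reductase, peaked at 53.7 ± 7.32 RPKM against means of 21.9, 40.2 and 38.0 at H6, H9 and H20, and XTH33, a xyloglucan endotransglucosylase, at 14.9 ± 1.68 against 8.74, 3.94 and 8.67 (SD, n = 3). OPR2 was lost without H15 pool 1 or H20 pool 1, and XTH33 without any library other than H6 pool 3, H9 pool 1 or 2 or H20 pool 3 (adjusted p up to 0.074 and 0.143). Without scaling factors both calls were lost, and with limma that of OPR2. OPR2 was the single peak of the 3 jasmonate contigs. The other 2 were lower at H15 than the mean of the others and below H20 (15.5% and 17.0% of all contigs). SKP2B, an F-box protein of cell cycle control, had a trough at 6.85 ± 1.63 RPKM against 43.6, 18.4 and 10.6, which was kept without H6 pool 1 or 3, H9 pool 2 or H15 pool 3 and lost without any other library (adjusted p up to 0.165). GSTF7, a glutathione S-transferase, had a trough at 27.8 ± 4.78 RPKM against 65.1, 47.2 and 45.0 (size -0.62, adjusted p = 0.0123) that held without each library in turn. The oxygenase At4g25310 had a trough at 2.79 ± 1.45 RPKM against 24.2, 8.15 and 7.24 (size -1.37), lost without H9 pool 1, H15 pool 1 or 2 or H20 pool 1 or 3 (adjusted p up to 0.0633). The cytochrome P450 CYP71B7 had a trough at 4.02 ± 2.18 RPKM against 16.4, 18.2 and 10.4 (size -1.35), and the splicing factor SMP1 at 1.04 ± 0.0624 against 107, 2.35 and 19.6 (size -1.04), and both held without each library. A contig described as ABC transporter C family member 12 had a trough at 7.04 ± 3.24 RPKM against 18.0, 18.9 and 15.5 (size -1.13), lost without H15 pool 1 or 2 or H20 pool 1 or 3 (adjusted p up to 0.0718).

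Several lists held no peak or trough, against 4.33% and 5.08% of all contigs. At these shares 0 calls are common in lists as short as the flavonoid and phloem ones. Of the 43 ribosomal protein contigs, a longer list, 0 were called either way, and whether this is fewer than usual was not tested. Of the 9 flavonoid contigs 0 were called either way, and 6 were lower at H15 than the mean of the other time points (15.5% of all contigs). The 10 phloem contigs had 0 of either, with 5 below H20 (17.0% of all contigs). Among these the 6 contigs of the sieve element protein SEOR, the phloem marker found, summed to 388 to 419 RPKM in the H15 pools and 667 to 758 in the H20 pools. Of the vessel markers 3 of 5 were in the table, at 18.2 to 50.1 summed RPKM in H15 and 33.3 to 41.6 in H20. For root hairs 0 of 5 markers were in the table. Low or stable transcripts were filtered out by the authors, so a missing marker does not show that a tissue was absent.

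**Figure D5:**
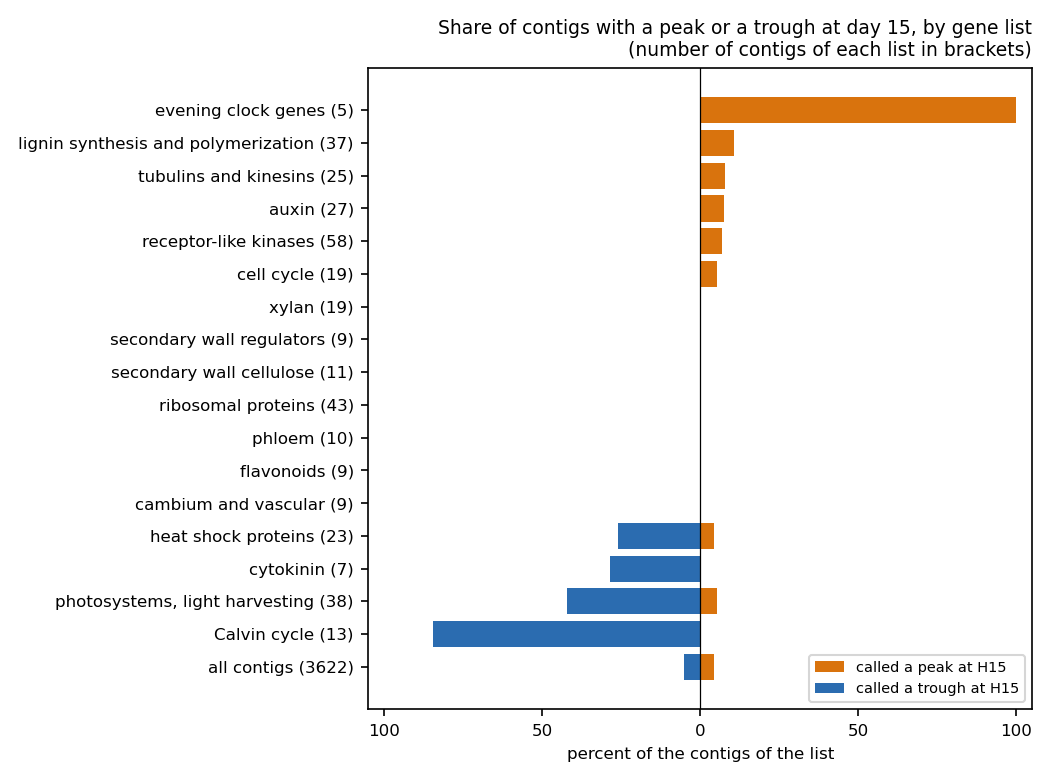
For each gene list or family, bars to the right give the percentage of its contigs called a peak at H15 and bars to the left the percentage called a trough, with the number of contigs in brackets and all 3622 contigs in the lowest bar. The evening clock genes (5 of 5 peaks), the Calvin cycle (11 of 13 troughs) and the photosystems (16 of 38 troughs) stand farthest from the values of all contigs, 4.33% and 5.08%.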

How the data were processed

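Total RNA of 12 pools of hypocotyls was made into stranded mRNA libraries and sequenced on an Illumina MiSeq. The authors assembled the reads de novo with CLC Genomics Workbench, mapped them to the contigs and annotated these with Blast2GO against Arabidopsis. The deposited table gave per library the values used here: counts of reads with 1 mapping position, as deposited, and the RPKM that the authors calculated from mapped reads and contig length. The table's FDR p-values and group averages, which the authors calculated in their own comparison, were not used. The deposited contigs are those that passed the authors' filter (FDR under 0.05, fold change over 2, and RPKM differing by over 10), so low and stable transcripts are not analysed here.

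Mapped reads per library were recovered from count, RPKM and length. The fit of the counts used the quasi-likelihood test of edgeR 4.0.16 (R 4.3.3), with TMM factors (0.9256 to 1.063) and 1 coefficient per time point. The fit left 8 residual degrees of freedom, and the biological coefficient of variation was 0.168. P-values were adjusted over 3622 contigs by the Benjamini-Hochberg method, and the filter on low counts removed 0. Every adjusted p in the text comes from this fit. The pools come from separate sets of hypocotyls of 1 batch, and p-values measure the spread between these pools. Replicates differed by more than sampling noise in every pair. DESeq2 1.42.0, limma 3.58.1 on log2(RPKM + 1) and log2(RPKM + 0.1), other scaling, a minimum mean of 100 reads, a block for the replicate number and leaving out each library were run as alternatives. Code was tested on simulated data.

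Named contigs were the 12 peaks and 12 troughs of the largest size with an annotation, at least 10 RPKM and no overlap of pools, up to 6 called members per gene list, up to 3 per family of at least 5 contigs, up to 10 transcription factors each way, and SND2, VND1, NST1, MYB46, PXC1 and WLIM1. Members, lists and this rule were chosen with earlier results of these data known. Of 3622 contigs 2554 carried an Arabidopsis symbol.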

Additional observations from a re-analysis of the deposited data

How the results depend on the processing

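Without each library in turn, the number of contigs higher at H15 lay between 579 and 648, lower between 538 and 615, peaks between 93 and 177, troughs between 108 and 195, peaks over 2-fold between 27 and 34 and troughs over 2-fold between 31 and 57. Of 132 recomputed counts 123 stayed within 1.5 times. Against the mean of H9 and H20 only, 277 contigs were higher (247 shared) and 269 lower (253 shared). Non-overlap of pools in RPKM, without a test, gave 322 above and 399 below. The share of peaks among peaks and troughs was 46.0%, and it was 35.9% without scaling factors (126 and 225), 34.0% with limma on log2(RPKM + 0.1) (114 and 221), 37.4% with limma on log2(RPKM + 1) (127 and 213), 40.9% with DESeq2 (162 and 234) and 42.5% with RLE factors (133 and 180). For contigs higher among higher and lower it was 52.5%, and between 42.5% and 58.3% in these alternatives. Of the 82 named contigs called, 50 were called in all 21 alternatives and none reversed. With a replicate block there were 621 higher, 562 lower, 146 peaks and 166 troughs. Equal replicate numbers did not pair the pools, with correlations of deviations of -0.281 to 0.257 and 4 of 18 over 0.1, and 8 of 12 libraries correlated better with their own number. Contigs under the authors' minimum cannot be assessed.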

Other observations

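The contigs below were chosen after their values were seen. Single transporters were among the peaks and among the troughs. By family, nitrate and peptide transporters had 1 peak and 1 trough among 16 contigs. ABC transporters had 0 peaks and 2 troughs among 23, and sugar transporters 0 of either among 14. In families of this size these counts are near the 4.33% and 5.08% of all contigs. AAT1, an amino acid transporter, had 10.7, 8.84 and 15.4 RPKM at H15 and 0.680 to 6.43 RPKM in the other 9 pools, with a size of 1.09 (adjusted p = 0.00816). AMT1;1, an ammonium transporter of the plasma membrane, had 41.2, 33.3 and 46.0 RPKM at H15 and 11.7 to 27.4 elsewhere (size 0.90, adjusted p = 0.00185). Both held without any single library and in all other alternatives. A boron transporter (At3g62270) had 2 contigs with a peak, at 24.2 ± 3.18 and 17.2 ± 1.79 RPKM at H15 and 14.2 ± 2.67 and 13.0 ± 0.413 at H20 (SD, n = 3), which were called without 10 and 7 of the 12 libraries in turn. PDR1, described as an exporter of p-coumaryl alcohol, a building block of lignin, had 12.6, 12.9 and 13.3 RPKM at H15 and 6.80, 9.67 and 8.81 at H20 (adjusted p = 0.0367), a call kept in 7 of the 12 fits without a library. Opposite in direction, the amino acid permease AAP6 had 21.1, 17.5 and 21.3 RPKM at H15, 54.1, 38.5 and 43.4 at H9 and 58.2, 61.8 and 57.5 at H20 (size -1.05, adjusted p = 0.000797).

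SCAR3, a subunit of the WAVE complex that starts actin branching, peaked at 32.7, 30.4 and 34.8 RPKM, with 13.5 to 27.1 RPKM elsewhere (size 0.43, adjusted p = 0.0107). The Abl interactor-like proteins ABIL3 and ABIL1, which belong to the same complex, had 31.0 ± 1.65 and 38.9 ± 1.46 RPKM at H15 and 23.4 ± 1.39 and 31.2 ± 0.875 at H20 (SD, n = 3). SCAR3 was called in every alternative, and ABIL3 and ABIL1 in 9 and 7 of the 12 fits without a library. By gene ontology, 25 peaks (6.14%) and 12 troughs (2.95%) lay among 407 contigs of the plasma membrane, near the 4.33% and 5.08% of all contigs. The apoplast held 6 peaks (5.50%) and 19 troughs (17.4%) among 109 contigs. The response to cold held 2 peaks (2.63%) and 21 troughs (27.6%) among 76, and the response to heat 1 peak (2.04%) and 7 troughs (14.3%) among 49.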
